A study of Danio rerio with 48 samples.

Results

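The levels of 10 genes of the absorptive intestine were followed in RNA of larval zebrafish heads after exposure to PFHxS (perfluorohexanesulfonate), a fluorinated surfactant of the PFAS family. They were cdx1b, vil1, anpepb, tmprss15, alpi.2, c6ast4, chia.1, slc15a1a, slc15a1b and slc28a1, which makes 10 of the 25445 genes in the deposited count table. They are known markers of the intestinal lining or of digestion, and they were chosen by their measured levels as well, since several were among the genes with the largest rise between 4 and 5 days post fertilisation (dpf). The rule of choice names no group for that rise. The age differences of the members are therefore given as a description, in the solvent controls and in the exposed larvae. No test is given for the controls, and nothing is read from the members called in the exposed groups.

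The larvae came from a mixed wildtype line, and the labels name no transgene or deletion. At each of the ages 4 and 5 dpf there were 4 groups, held in the vehicle alone (0.4% DMSO) or in the same vehicle with PFHxS at 7.87, 14 or 25.1 µM from 0 dpf on. Every group held 6 libraries, 48 in all, each made from 15 pooled heads that were cut off anterior to the swim bladder. Libraries are named below by the letter in their sample titles. Nothing in the labels says that the pools came from separate clutches, so a p-value here sets a difference against the variation among pools, and part of that variation may be technical.

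The larval zebrafish intestine becomes an absorbing organ at about the age when the yolk runs out and feeding begins. Its enterocytes then carry a brush border, a carpet of microvilli whose membrane holds peptidases, phosphatase and solute carriers, and digestion is shared with enzymes that the exocrine pancreas sends into the gut. Cdx factors are the homeobox regulators of this epithelium, villin bundles the actin of the microvilli, and the PepT1 carriers take up di- and tripeptides together with protons.

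Libraries held between 16.6 and 39.2 M counts, where M stands for 1000000. Levels are given as counts per M (CPM) with library sizes scaled by TMM (trimmed mean of M values), and 3 counts in a library, taken as the floor, stood for 0.113 to 0.273 CPM at 4 dpf and for 0.0661 to 0.139 CPM at 5 dpf. All 10 members passed the filter on low counts, as did 20723 genes in all. Each of 18 genes of brain and retina had counts in every library. Their summed level ran from 10497 to 37690 CPM at 4 dpf and from 6189 to 13616 CPM at 5 dpf. The rod opsin gene rho made up much of it, with DMSO means of 14939 CPM at 4 dpf and 6366 CPM at 5 dpf. Any sample that includes the head would hold such counts, so they do not show where the cut fell. In a bulk sample, fewer cells of a type and less RNA per cell cannot be told apart.

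Of the 24 libraries of 5 dpf, 4 stood apart and bear on the results at that age. They were libraries A and D at 14 µM and libraries C and D at 7.87 µM. They were set aside because the summed level of 20 exocrine pancreas genes was under 10 CPM in them, at 8.79, 9.59, 6.85 and 4.15 CPM, against 100.7 CPM or more in the other 5 dpf libraries. In all 4 of them every member was at or below the highest level seen in any 4 dpf library. Results at 7.87 and 14 µM are given with and without these libraries, a choice made after seeing the data.

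In the DMSO controls all 6 libraries of 5 dpf lay above all 6 of 4 dpf for each of the 10 members, whereas 14% of all genes tested showed that separation. The fitted log2 fold change of 5 against 4 dpf had a median of 5.71 over the members, from 1.60 for vil1 to 6.16 for slc15a1a, against a median of 0.20 over all genes. These values may have chosen the members, so nothing is read from them beyond the levels.

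**Figure D1:**
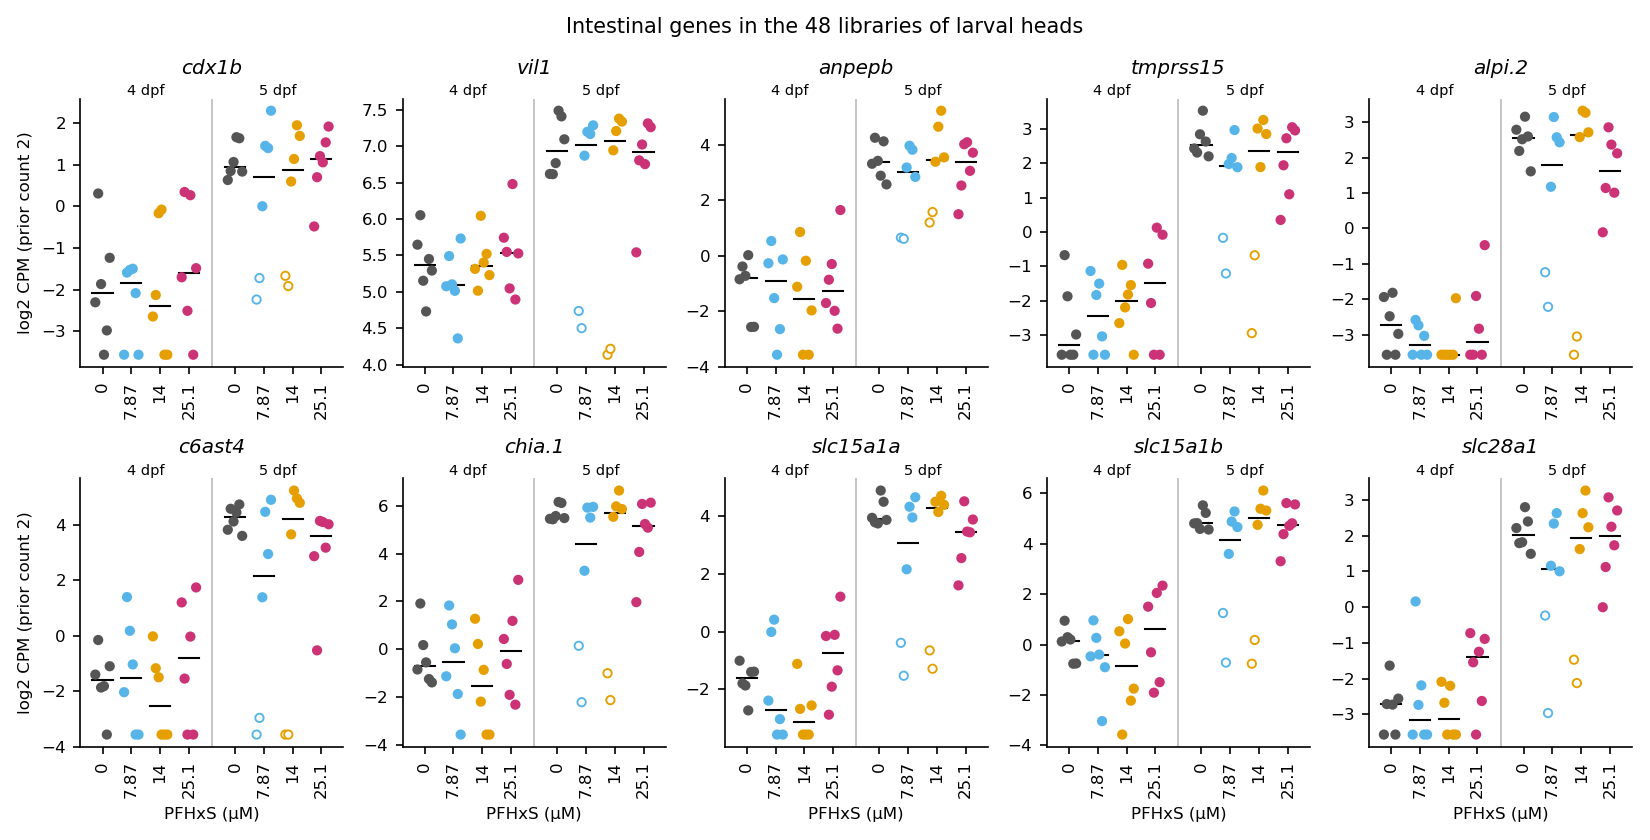
Level of each of the 10 intestinal genes in the 48 libraries, as log2 CPM with a prior count of 2 (vertical axes, each gene on its own scale), by age and PFHxS concentration (horizontal axes). Each point is a library, bars are medians of 6 libraries, and open points are the 4 libraries of 5 dpf that stood apart, which lie among the 4 dpf values or below them.

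In the exposed larvae every member also lay higher at 5 than at 4 dpf in the fit, and all 10 were past the threshold (adjusted p under 0.05, edgeR quasi-likelihood test) at each concentration. Of all genes tested, 26.9% were called higher at 5 dpf at 7.87 µM, 22% at 14 µM and 25.8% at 25.1 µM. Because rises with age chose the members, nothing is read from these counts. The median log2 fold change of the members was 4.17, 5.70 and 3.73 in that order of concentration, against 0.21, 0.22 and 0.26 over all genes.

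All 6 libraries of 5 dpf lay above all 6 of 4 dpf for 2 members at 7.87 µM (4.88% of all genes), for 1 member at 14 µM (6.09%) and for 5 members at 25.1 µM (13.4%). Without the libraries that stood apart the counts were 9 of 10 at 7.87 µM (8.16% of all genes) and 10 of 10 at 14 µM (9.57%), with 4 libraries of 5 dpf left in each group. In the libraries left out every member was at 4 dpf levels, so leaving them out raises these counts. Nothing is read from the change. The count table has a first block of 32 columns and a last block of 16, which the labels do not name as batches. Within the first block the median age difference of the members in log2 CPM was 3.56, 2.95 and 4.32 at 7.87, 14 and 25.1 µM, and within the last it was 6.68 and 3.33 at 14 and 25.1 µM; the last block holds no 4 dpf library at 7.87 µM. All 10 differences were positive in each of these 5 cases.

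**Figure D2:**
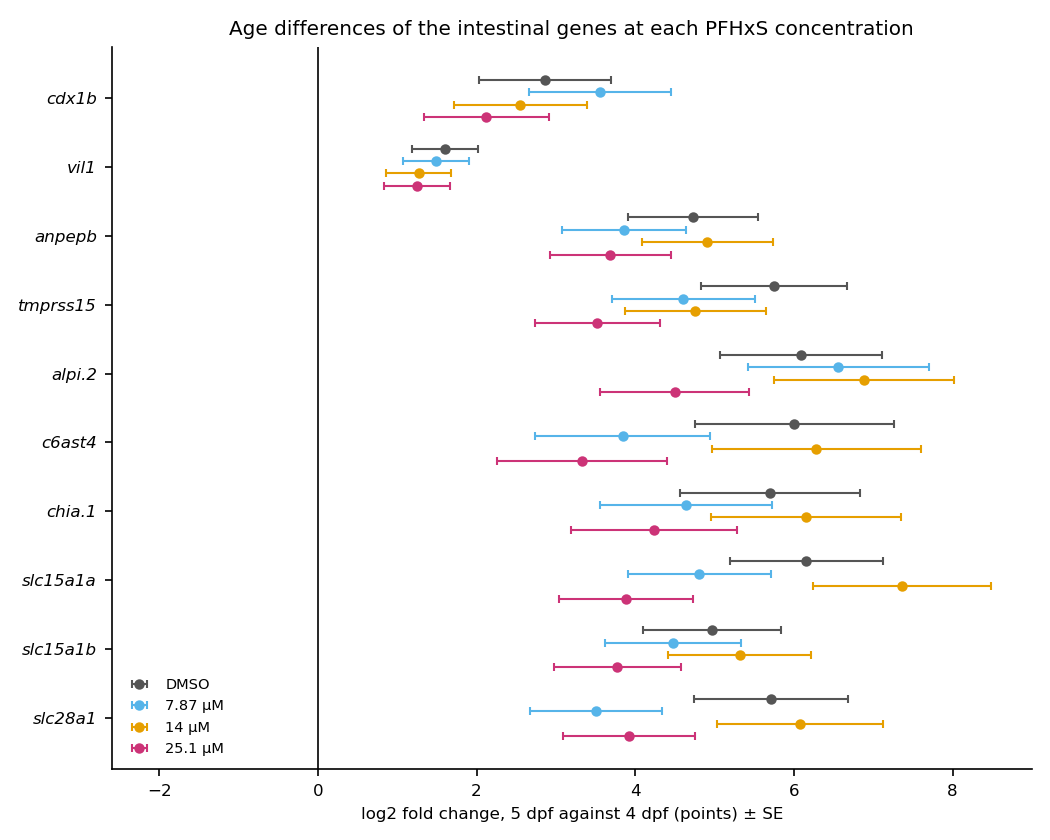
Log2 fold change of 5 against 4 dpf (points) for each intestinal gene, in DMSO and at the 3 PFHxS concentrations. Bars are approximate standard errors from the F statistic of the edgeR fit, with 6 libraries per age and concentration. All points lie to the right of 0; those of vil1 lie between 1.25 and 1.60 and those of the other 9 genes between 2.12 and 7.36.

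The regulator of the group, cdx1b (chr21:43976075-43992028 on GRCz11, minus strand), encodes a caudal-type homeobox factor of the intestinal epithelium. DMSO libraries held 0 CPM at the lowest, 0.154 at the median and 1.16 at the highest at 4 dpf, and 1.47, 1.87 and 3.09 CPM at 5 dpf. Levels at 4 dpf were thus at or near the floor in most DMSO libraries, with library E as the high value, and the ages did not overlap.

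At 25.1 µM cdx1b went from a median of 0.248 CPM at 4 dpf (0 to 1.19) to 2.12 CPM at 5 dpf (0.632 to 3.70), a log2 fold change of 2.12 ± 0.79 (SE, n = 6 against 6). Library C of 5 dpf was the low value there and fell within the range of 4 dpf. Leaving out single libraries moved this value between 1.83 and 2.63. Its edgeR call was lost without library D or F of 4 dpf or I of 5 dpf (adjusted p of 0.0527, 0.0588 and 0.0568). At 7.87 and 14 µM the values of cdx1b were 3.56 ± 0.89 and 2.55 ± 0.84 on the log2 scale (SE).

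Villin itself, vil1 (chr9:44907768-44953665, minus strand), which bundles actin filaments in microvilli, was at 26.5 CPM in the lowest DMSO library of 4 dpf, 41.4 at the median and 66.3 at the highest, and at 98.0, 123 and 179 CPM at 5 dpf. No library of either age lacked vil1 counts, and the ages were apart in DMSO.

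Its log2 fold change was the smallest of the members at each concentration: 1.49 ± 0.41 at 7.87 µM, 1.27 ± 0.41 at 14 µM and 1.25 ± 0.41 at 25.1 µM (SE), which became 2.46, 2.1 and 1.98 with scaling by library totals alone. At 14 µM libraries A and D of 5 dpf, at 17.5 and 18.5 CPM, lay below every 4 dpf library of that concentration, while the other 4 held 123 to 166 CPM. The expected counts of vil1 were not whole numbers in 38 of the 48 libraries.

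Among the brush border and luminal enzymes, anpepb (chr25:10811551-10827772, plus strand) encodes an aminopeptidase N that trims peptides at the membrane. DMSO libraries held 0.0843, 0.496 and 0.931 CPM (lowest, median, highest) at 4 dpf and 5.85, 10.2 and 19 CPM at 5 dpf. At 25.1 µM the levels were 0.0775, 0.344 and 3.05 CPM at 4 dpf and 2.74, 10.6 and 16.9 CPM at 5 dpf, and the ages overlapped only through library H of 4 dpf and library C of 5 dpf.

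The log2 fold change of anpepb was 3.86 ± 0.78, 4.91 ± 0.83 and 3.69 ± 0.76 at 7.87, 14 and 25.1 µM (SE). In the 4 libraries that stood apart anpepb was at 1.44 to 2.89 CPM, and it was the single member that was not below every other library of 5 dpf there (lowest, 2.74 CPM).

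Enteropeptidase, the product of tmprss15 (chr21:34992550-35041300, plus strand), is the brush border protease that activates trypsinogen and so starts the activation of the pancreatic enzymes. In DMSO it was at 0, 0.0213 and 0.544 CPM at 4 dpf, with 3 of 6 libraries at 0, and at 4.52, 5.72 and 11.5 CPM at 5 dpf. At 25.1 µM the medians were 0.300 CPM at 4 dpf (0 to 1.01) and 5.16 CPM at 5 dpf (1.19 to 8.21), with no overlap. The log2 fold changes were 4.61 ± 0.90, 4.76 ± 0.89 and 3.52 ± 0.79 in order of concentration (SE).

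Intestinal alkaline phosphatase, alpi.2 (chr22:38778649-38794611, plus strand), was close to absent at 4 dpf: 5 of 6 libraries at 14 µM and 3 of 6 at 7.87 and at 25.1 µM had no count, and the 6 libraries at 14 µM held 4 counts together. At 5 dpf the DMSO libraries were at 2.97, 5.81 and 8.83 CPM, and those at 25.1 µM at 0.843, 3.19 and 7.16 CPM. Its log2 fold changes, 6.56 ± 1.14, 6.88 ± 1.14 and 4.50 ± 0.94 (SE), thus rest on a few counts at 4 dpf and depend on the prior count. The expected counts of alpi.2 were not whole numbers in 22 of the 48 libraries, which makes its values uncertain as well.

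The astacin-type metalloprotease c6ast4 (chr7:38635538-38638810, minus strand) and the acidic chitinase chia.1 (chr11:23993298-24000172, plus strand) belong to gene families whose copies may share reads, and their counts were not whole in 14 libraries or more; the values of these copies are uncertain. In DMSO chia.1 was at 0.298, 0.535 and 3.67 CPM at 4 dpf and at 43.0, 45.9 and 71.1 CPM at 5 dpf, and c6ast4 at 0, 0.247 and 0.816 CPM and then at 12.1, 19.7 and 26.8 CPM. Both were far apart between the ages there.

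The log2 fold changes of chia.1 were 4.64 ± 1.08, 6.15 ± 1.20 and 4.24 ± 1.04 (SE), and those of c6ast4 3.84 ± 1.11, 6.28 ± 1.32 and 3.33 ± 1.07. At 25.1 µM and 5 dpf the low library of c6ast4 was not that of the other members: c6ast4 was at 0.611 CPM in library D and at 7.27 CPM in library C.

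The peptide carriers slc15a1a (chr9:1137430-1162805, plus strand) and slc15a1b (chr6:12556427-12588045, minus strand) are the 2 zebrafish copies of PepT1. In DMSO slc15a1a was at 0.0665, 0.25 and 0.412 CPM at 4 dpf and at 13.3, 14.9 and 29.5 CPM at 5 dpf, and slc15a1b at 0.506, 1.03 and 1.84 CPM and then at 23.4, 27.8 and 45.6 CPM. Neither gene overlapped between the ages in DMSO or at 25.1 µM.

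At 25.1 µM slc15a1a was at 0.0517, 0.563 and 2.23 CPM at 4 dpf and at 2.95, 10.9 and 22.8 CPM at 5 dpf. For slc15a1b the same values were 0.182, 1.73 and 4.96 CPM and 9.76, 26.9 and 48.6 CPM. The log2 fold changes of slc15a1a were 4.81 ± 0.91, 7.36 ± 1.12 and 3.88 ± 0.84 (SE), and those of slc15a1b 4.48 ± 0.86, 5.32 ± 0.90 and 3.78 ± 0.80. The value of 7.36 at 14 µM stands on 8 counts of slc15a1a over the 6 libraries of 4 dpf, 3 of them at 0.

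The sodium-coupled nucleoside carrier slc28a1 (chr18:26829086-26850070, plus strand) was at 0, 0.0673 and 0.237 CPM in DMSO at 4 dpf and at 2.73, 3.99 and 6.86 CPM at 5 dpf. At 25.1 µM it was at 0, 0.297 and 0.519 CPM and then at 0.913, 3.95 and 8.32 CPM, with no overlap. Its log2 fold changes were 3.51 ± 0.83, 6.08 ± 1.05 and 3.92 ± 0.83 (SE), and the value at 7.87 µM was 6.06 without library B of 4 dpf.

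Whether the age difference itself depended on the concentration was fitted in 1 model with 3 interaction terms. Each term subtracts the DMSO age difference, which may have chosen the members, so the values are a description. No member was past the threshold, where 0% of all genes were (edgeR), and at an unadjusted p under 0.05 the count was 0 of 10 members and 2.43% of all genes. That does not show that the age differences were alike. The fitted difference of slc15a1a from the DMSO value, for example, was 1.20 on the log2 scale at 14 µM and -2.27 at 25.1 µM. It is the member with the smallest unadjusted p (0.0868, edgeR), and its 14 µM value stands on 8 counts at 4 dpf. For vil1, which had counts in every library, the same differences were -0.33 and -0.35.

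The concentrations were then compared with DMSO of the same age. These comparisons use libraries that may have chosen the members, which were low at 4 dpf and high at 5 dpf by that choice, and the 3 concentrations of an age share the same controls. No member was called at any concentration at 4 or at 5 dpf, and 0% of all genes were, with the edgeR test. At an unadjusted p under 0.05 there were 0 of 10 members in each of the 6 comparisons, against 12%, 5.05% and 2.61% of all genes at 7.87, 14 and 25.1 µM at 4 dpf and 4.69%, 0.729% and 0.671% at 5 dpf.

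At 4 dpf several members lay at or under the floor in both groups, and no fold is given for those: alpi.2 at every concentration, tmprss15 at 7.87 and 14 µM and slc28a1 at 14 µM. A member was kept if its mean was above the floor in either group. Where it was above the floor in only a single group, the filter largely set the sign. That holds for slc28a1 and cdx1b at 7.87 µM and for slc15a1a at 14 µM, so nothing is read from the counts of signs. Over the 8 members left at 7.87 µM the median log2 fold change was 0.29, with 5 positive (55.9% of all genes were). Over the 7 left at 14 µM it was -0.36, with 3 positive (50.7% of all genes), and slc15a1a had the lowest value, -1.51 ± 1.45 (SE). At 7.87 µM the highest value, 1.5 ± 1.14 (SE) for slc28a1, rested on library B at 1.03 CPM, where the other 5 libraries held 0.135 CPM or less; without library B it was -1.04. The median over all 10 members changed sign with the settings in both comparisons: at 7.87 µM from 0.22 to as low as -0.44 (without library B), and at 14 µM from -0.38 to 0.15 without DMSO library E and to 0.51 with the letter as block.

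At 25.1 µM and 4 dpf the values leaned the other way from those at 5 dpf. All 9 members above the floor in either group had a positive log2 fold change, where 48.6% of all genes did. Their median was 1.14, with a range from 0.19 ± 0.41 for vil1 to 1.90 ± 1.27 for c6ast4 (SE). Of these, tmprss15 and slc28a1 were above the floor only in the exposed group, so the filter largely set their sign. Low levels in these controls may also have chosen the members, so nothing is read from the count. The values of tmprss15 and slc28a1 were 1.80 ± 1.03 and 1.76 ± 1.13, and the smallest unadjusted p of a member was 0.0864 in edgeR, so none differed beyond the spread between libraries in this fit. With the letter as block, which pairs libraries in this comparison, 2 of 10 members and 2.64% of all genes had an unadjusted p under 0.05 and none was called by edgeR. Library H carried the highest level of slc15a1a, slc15a1b, alpi.2, chia.1, c6ast4 and anpepb, and without it the median over all 10 members went from 1.06 to 0.73, and without DMSO library E to 1.63.

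That lean also differed between the blocks of columns. In the first 32 columns (4 libraries against 2 of DMSO) the median difference of the members in log2 CPM was 0.14, with 6 of 10 positive, and in the last 16 (2 against 4) it was 1.38, with 10 of 10 positive. The exocrine pancreas genes were also high in this group. Their summed level had a median of 206 CPM (40.2 to 454) against 44.2 CPM (14.8 to 245) in DMSO. For the liver genes it was 1369 against 354 CPM. The liver genes were not high in this group alone. At 7.87 and 14 µM of 4 dpf their summed medians were 704 and 1001 CPM, and those of the pancreas genes 65.9 and 111 CPM. The liver genes' median log2 fold change was 0.80 and 1.34 there, against 1.14 in this group. For the pancreas genes it was 0.74 and 0.52 there, against 1.64 in this group. For the members it was 0.22 and -0.38 there, against 1.06 in this group. The part of the pancreas and liver genes in the result was not tested.

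At 5 dpf most values were below 0. All 10 members had a negative log2 fold change at 7.87 µM (median -0.71, from -0.92 ± 0.66 for tmprss15 to -0.18), 9 of 10 at 14 µM (median -0.20, from -0.45 ± 0.65 for tmprss15 to 0.36 ± 0.64 for anpepb) and all 10 at 25.1 µM (median -0.29, from -0.78 ± 0.93 for c6ast4 to -0.01). Of all genes, 51.8%, 53.7% and 52.2% were positive. High levels in the DMSO libraries of 5 dpf may have chosen the members. Their levels also moved together over the libraries of 5 dpf, so their signs are not separate observations. Nothing is read from the counts of signs. Without the 4 libraries that stood apart the median was -0.18 at 7.87 µM, with 2 of 10 positive, and 0.37 at 14 µM, with 10 of 10 positive. Those libraries were set aside for low levels of genes that moved with the members, so leaving them out raises the members' values. Nothing is read from that change. Within the first and the last block of columns the members' median difference in mean log2 CPM was -1.74 and -1.40 at 7.87 µM. At 14 µM it was -2.31 and 0.69, and at 25.1 µM -0.50 and -0.11. This is another measure than the fitted values above. The first block sets 3, 4 and 4 exposed libraries against 5 of DMSO. In the last block 3, 2 and 2 stand against 1 of DMSO. The sign at 14 µM differed between blocks, and the last block there rests on 2 libraries against 1. Libraries A and D at 14 µM are both in the first block.

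**Figure D3:**
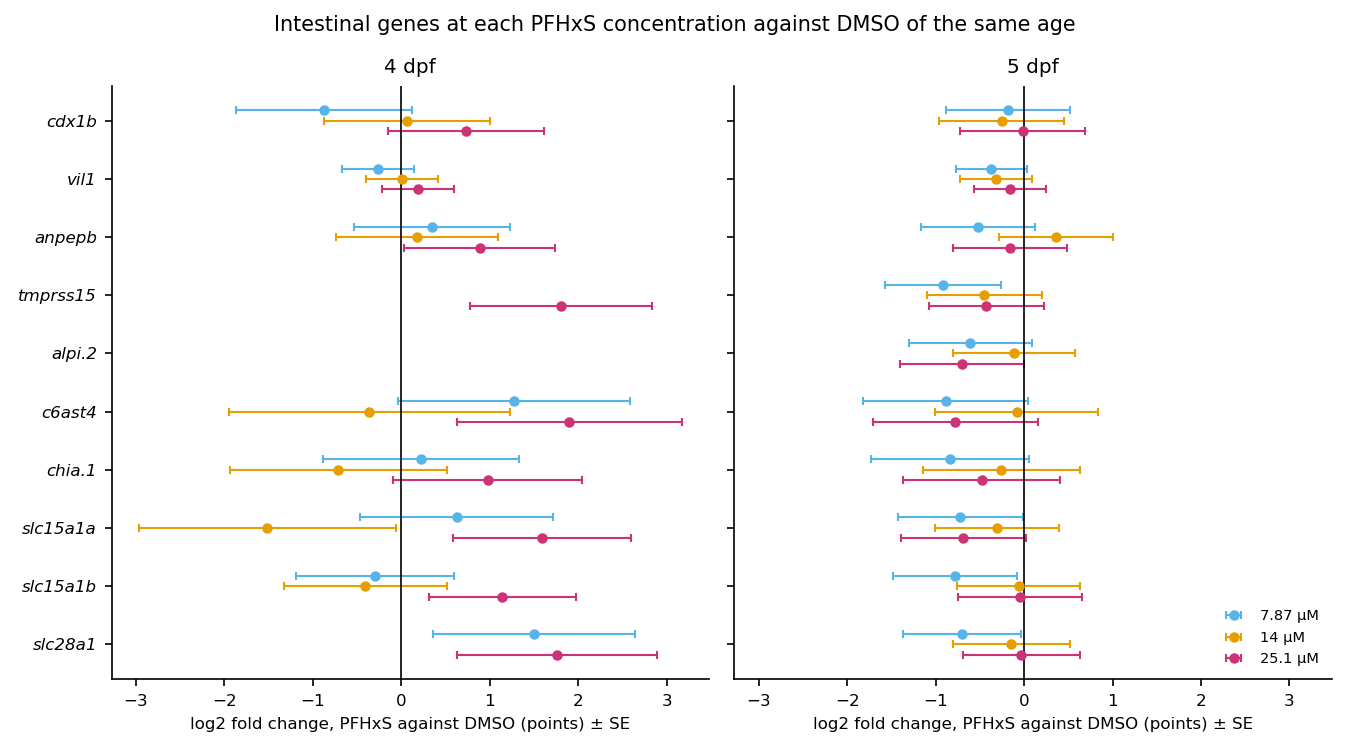
Log2 fold change of each PFHxS concentration against DMSO of the same age (points) for each intestinal gene at 4 dpf (left) and 5 dpf (right). Bars are approximate standard errors from the F statistic of the edgeR fit, with 6 libraries per group. Genes at or under the floor of 3 counts in both groups are not drawn, and no point passed the threshold. At 5 dpf the points lie between -0.92 and 0.36.

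Over the libraries of 5 dpf, groups pooled, the members' levels moved together. Pearson r was taken on log2 CPM as deviations from the group means. Over the 24 libraries of 5 dpf the 45 pairs of members had a median r of 0.92 (0.78 to 0.99). Over the 20 libraries left without those that stood apart it was 0.67 (0.05 to 0.94). At 4 dpf, where many values were near the floor, the median was 0.39 (-0.20 to 0.86). Differences between group means are thus taken out, and the values are a description of libraries that share depth and composition.

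The libraries that stood apart show this in levels. The 9 members other than vil1 summed to 4.24 and 5.30 CPM in libraries A and D at 14 µM and to 7.53 and 3.15 CPM in libraries C and D at 7.87 µM, against at least 30.1 CPM in the other 20 libraries of 5 dpf and 0.389 to 23.1 CPM at 4 dpf. In library A at 14 µM alpi.2 and c6ast4 had no count, slc15a1b was at 0.506 CPM and chia.1 at 0.414 CPM. The liver genes of these libraries summed to 1293, 1552, 781 and 702 CPM, against 2747 CPM or more in DMSO at 5 dpf and 103 to 3491 CPM at 4 dpf.

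Counted against the controls, all 10 members lay below every DMSO library of 5 dpf in each of the 4, whereas 18.4% and 14.2% of all genes did so in libraries A and D at 14 µM and 18.9% and 16.2% in libraries C and D at 7.87 µM. Library C at 25.1 µM also had 10 of 10 members below (19.6% of all genes), library D at 25.1 µM had 8 (15.4%) and library F at 7.87 µM had 8 (29.8%). Libraries G and H at 25.1 µM had 3 and 4 members below (20.4% and 13.1% of all genes), and the other 9 exposed libraries of 5 dpf had 0 to 2, where 10.2% to 31.4% of all genes did so. High levels in these controls may have chosen the members, and the 4 libraries were set aside for low levels of genes that moved with the members. Nothing is therefore read from these counts. The controls of 5 dpf hold no library with the letter A or D. They do hold a library C, the letter of low libraries at 7.87 and 25.1 µM. Each exposed group of 5 dpf holds a library D, with 10, 10 and 8 members below at 7.87, 14 and 25.1 µM. What a letter marks is not stated in the labels. Letter D and exposure cannot be told apart here, and the part of the letter was not tested.

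**Figure D4:**
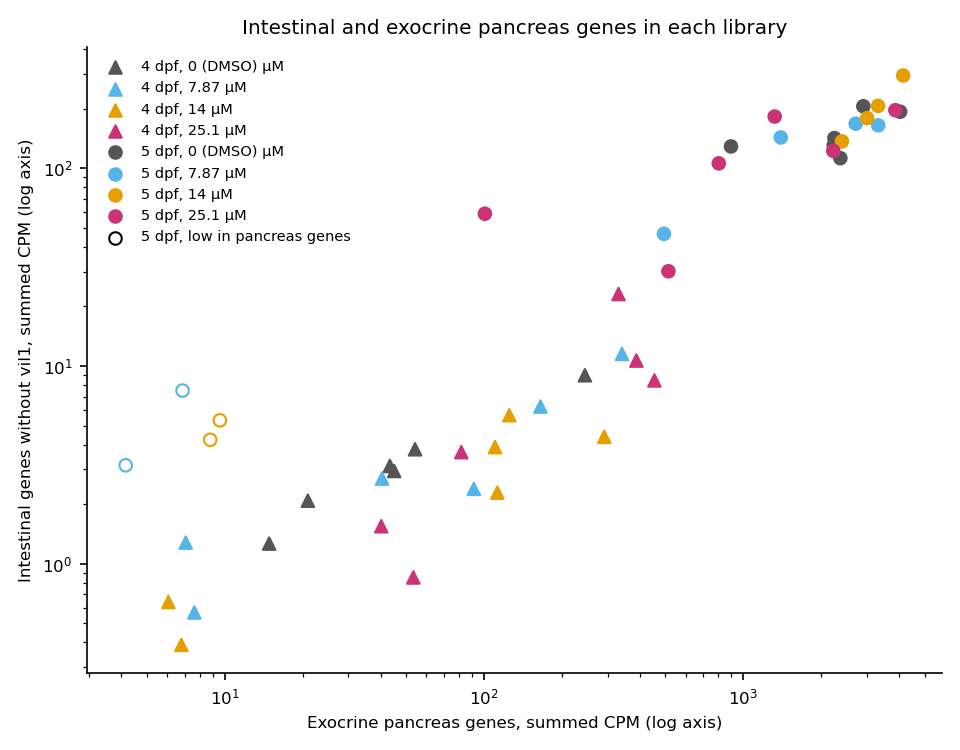
Summed level of the 9 intestinal genes other than vil1 (vertical axis, CPM, log scale) against the summed level of 20 exocrine pancreas genes (horizontal axis, CPM, log scale) in each of the 48 libraries. Triangles are 4 dpf, circles 5 dpf and open circles the 4 libraries that stood apart. Library D of 5 dpf at 25.1 µM lies off the main trend, at 58.9 CPM of intestinal and 100.7 CPM of pancreas genes.

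Among genes with an assigned name, those whose pattern was most like that of the members were mostly of the exocrine pancreas. Likeness was the Pearson r, over the 48 libraries, between a gene's log2 CPM and the mean of the standardised members, both as deviations from their group means. Genes with clone-type or provisional names, such as those starting with si: or zgc:, were left out of the ranking. So was every gene whose name starts with cb. The 10 closest of the rest were amy2a (0.94), the lactase gene lct (0.94), prss1, ela2l, ela3l, ela2, ctrl, cpa1, ctrb1 and cel.1 (0.92). Of these, 9 are on the exocrine pancreas list: amylase, trypsin, elastases, chymotrypsins, a carboxypeptidase and a lipase. Without the 4 libraries that stood apart the r of these 10 genes over 44 libraries was 0.73 to 0.83. The ranking itself was not redone without those 4, which were set aside for low levels of pancreas genes.

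At 4 dpf the pancreas genes summed to between 6.07 and 454 CPM over the 24 libraries. The closest of them, amy2a, the pancreatic amylase, had medians of 2.69 CPM at 4 dpf and 194 CPM at 5 dpf in DMSO, and lct medians of 0.123 and 10.5 CPM.

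Other genes of the intestine were read from 6 lists that hold 116 genes with a row in the table and none of the members. These 6 lists were chosen with earlier results of these data known, so nothing is read from their counts. Of 18 hydrolases tested, 13 rose and 1 fell from 4 to 5 dpf at 7.87 µM, 16 and 1 at 14 µM, and 15 and 1 at 25.1 µM; of all genes, 26.9%, 22% and 25.8% rose and 23.7%, 19% and 21.2% fell. Their median log2 fold changes were 2.79, 3.03 and 2.74. The transporters (22 tested) gave 12 risen and 2 fallen, 13 and 1, and 13 and 3, with medians of 1.34, 1.91 and 1.44, and the genes of lipid absorption (21 tested) 15 and 1, 14 and 1, and 12 and 1, with medians of 2.17, 2.24 and 1.68.

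The counts of the other 3 lists stand against the same shares of all genes. Of 14 genes of the microvillus 4, 4 and 3 rose and 1 fell at each concentration. Of 22 regulators 11, 9 and 9 rose and 5, 3 and 4 fell, and of 11 genes of mucous and hormone-secreting cells 3, 3 and 2 rose and 2, 1 and 1 fell. Scaling by library totals alone, which moved the median of all genes up by 0.76 to 0.85 at the 3 concentrations, gave 11, 13 and 11 risen and 0 fallen of the 14 microvillus genes.

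From each list the pair of genes with the highest and the pair with the lowest average level are given at 25.1 µM, where no library stood apart (mean ± SD, n = 6 per age). Among the hydrolases the chitinase chia.2 rose from 20.6 ± 22.9 to 361 ± 203 CPM (log2 fold change 4.13 ± 1.03 SE, edgeR adjusted p = 0.00114) and the meprin subunit mep1a.2 from 0.0227 ± 0.0557 to 0.577 ± 0.79 CPM (4.17 ± 1.45, edgeR adjusted p = 0.0176). The mep1a.2 call was lost without library F of 5 dpf (log2 fold change 3.26, adjusted p = 0.0686), and the value was 6.77 without library H of 4 dpf. Angiotensin-converting enzyme, ace, was at 61.7 ± 18.6 and 61.1 ± 21.7 CPM, and trehalase, treh, at 0.0817 ± 0.107 and 0.333 ± 0.22 CPM, neither past the threshold.

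Among the transporters the iron carrier slc11a2 fell from 245 ± 63.8 to 116 ± 32.5 CPM (-1.08 ± 0.24, edgeR adjusted p = 0.000354; -0.31 and 0.0912 with scaling by library totals, where it was no longer called), and the sterol exporter subunit abcg8 rose from 0.0389 ± 0.0731 to 0.319 ± 0.203 CPM (2.72 ± 1.09, edgeR adjusted p = 0.0367). The abcg8 call was lost when any of 7 of the 12 libraries was left out (libraries B, C, D, E and F of 4 dpf, G and I of 5 dpf; adjusted p up to 0.0813), and without library H of 4 dpf the value was 4.30. The scavenger receptor cubn was at 50.4 ± 27.3 and 67.8 ± 25.7 CPM and lrp2b at 0.292 ± 0.194 and 0.211 ± 0.219 CPM, neither past the threshold.

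Of the lipid absorption genes, the apolipoprotein B gene apobb.1 rose from 333 ± 174 to 1489 ± 718 CPM (2.16 ± 0.78, edgeR adjusted p = 0.021). The transcription factor gene creb3l3a rose from 0.166 ± 0.216 to 0.739 ± 0.5 CPM (2.24 ± 0.81, edgeR adjusted p = 0.0216), a call lost without library F or H of 4 dpf or I of 5 dpf (adjusted p of 0.0563, 0.0506 and 0.08). The levels of apoa1a, 366 ± 310 and 239 ± 136 CPM, and of the lipid droplet gene plin2, 0.768 ± 0.478 and 1.03 ± 0.292 CPM, did not pass. Both apolipoprotein genes are also known from the yolk syncytial layer and the liver, and liver genes rose in the same comparison in 14 of 28 tested.

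Among the regulators, sox9b fell from 261 ± 52.8 to 99.0 ± 25.3 CPM (-1.40 ± 0.22, edgeR adjusted p = 1.34e-06; -0.63 with library totals) and prdm1a from 26.6 ± 7.99 to 15.9 ± 4.29 CPM (-0.74 ± 0.26, edgeR adjusted p = 0.0181). Both are active in many tissues of the head. The prdm1a call was lost without library E or F of 4 dpf or G of 5 dpf (adjusted p of 0.0591, 0.0536 and 0.0558), and with scaling by library totals alone its sign turned to 0.02. The endodermal factor gata4 rose from 0.0486 ± 0.0755 to 0.46 ± 0.18 CPM (2.97 ± 0.89, edgeR adjusted p = 0.00585), and the bile acid receptor nr1h4 was at 0.183 ± 0.152 and 0.446 ± 0.267 CPM, not past the threshold.

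No named gene of the microvillus or secretory lists passed at 25.1 µM. For the keratin gene krt92 the levels were 401 ± 155 and 431 ± 80.3 CPM, for the ezrin gene ezrb 113 ± 12.5 and 106 ± 6.52, for the cadherin-related gene cdhr5b 0.393 ± 0.303 and 1.26 ± 0.697, and for tm4sf5 0.391 ± 0.381 and 1.12 ± 0.301. The mucin genes muc5.1 and muc5.2 were at 352 ± 122 and 511 ± 152 and at 139 ± 42.9 and 163 ± 66.0 CPM, the secretory lineage factor atoh1b at 0.205 ± 0.227 and 0.212 ± 0.137, and the glucagon gene gcga at 0.0303 ± 0.0341 and 0.194 ± 0.144.

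**Figure D5:**
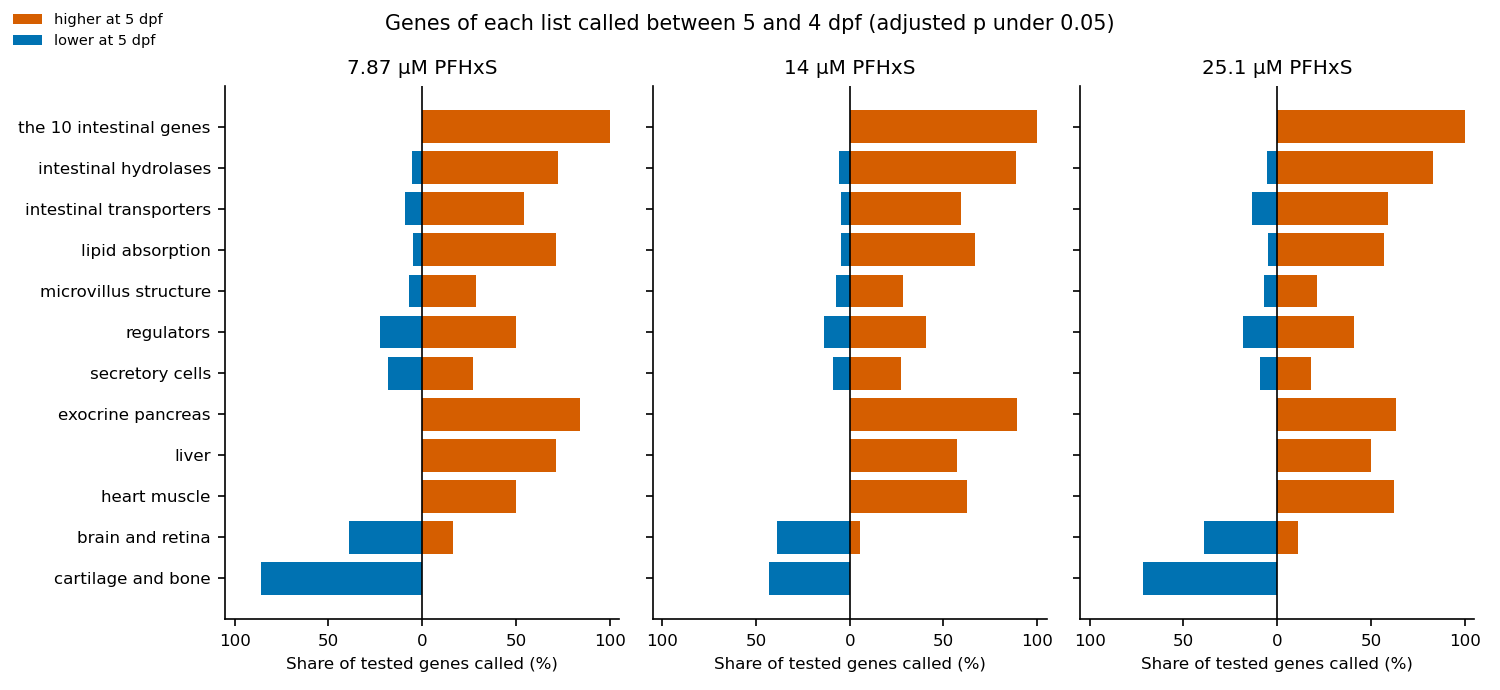
Share of the tested genes of each list that were called higher (right of 0) or lower (left of 0) at 5 than at 4 dpf, in percent, at each PFHxS concentration. All lists were chosen with earlier results of these data known. The 10 intestinal genes, chosen for such rises, reach 100% at each, and the exocrine pancreas genes 16, 17 and 12 of 19; cartilage and bone genes, 7 tested, were called lower only, in 6, 3 and 5, which became 3, 1 and 0 lower and 0, 1 and 2 higher with library totals.

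Genes of neighbouring organs were taken from further lists. These too were chosen with earlier results of these data known, so nothing is read from their counts. Of 19 exocrine pancreas genes tested 16, 17 and 12 rose and none fell at 7.87, 14 and 25.1 µM, with medians of 3.52, 4.19 and 2.71 on the log2 scale; of 28 liver genes 20, 16 and 14 rose, and of 8 heart muscle genes 4, 5 and 5. Of 18 genes of brain and retina 3, 1 and 2 rose and 7 fell at each concentration, a direction that turned with library totals to 10, 7 and 8 risen and 3, 2 and 1 fallen. With limma on the authors' quantile-normalized values the pancreas counts were 1, 1 and 0 of 18 tested, while the members gave 8, 7 and 8 of 9. The share of all genes called by limma is not given here, so nothing is read from these counts. The part of the other organs in the members' age difference was not tested.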

How the data were processed

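PolyA-selected RNA of 48 pools of 15 heads was sequenced, per the labels' protocols. The authors deposited a table of expected counts without normalization, 1 row for each of 25445 genes, of which 77.5% are whole within 1e-09. The authors' second deposited table holds log2 values, quantile-normalized by its name and with the same lowest and highest value in every library, and hold 9 of the 10 members (all but alpi.2). The build was GRCz11 and the tools Partek 8.0.19.0428 and STAR 2.5.3a, per the submitters' processing notes; their roles, the annotation and the handling of shared reads or strands are not given in the sources used here. No sequence and no promoter motif was used here.

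The members and the gene lists were chosen with earlier results of these data known. Expected counts were rounded to whole numbers, scaled by TMM (factors 0.566 to 1.10 at 4 dpf, 1.10 to 1.92 at 5 dpf) and filtered with filterByExpr on the 8 groups. The main model had a mean for each of the 8 groups and no covariate and was fitted to all 48 libraries (glmQLFit and glmQLFTest of edgeR 4.0.16, R 4.3.3); the biological coefficient of variation was 0.361. The Benjamini-Hochberg adjustment ran over 20723 genes, with 0.05 as the threshold. Each SE of an edgeR log2 fold change is the absolute fold change divided by the square root of the F statistic. It is therefore approximate, above all where a group held few counts. Log2 CPM used a prior count of 2, and groups do not overlap where every library of 1 age lies above every library of the other. In each other intestine list, the 2 genes with the highest and the 2 with the lowest average log2 CPM were named. The 10 genes most like the members were taken among those averaging 1 or more in log2 CPM. Genes with clone-type or provisional names, and all with names starting with cb, were left out of that choice. The code was tested on simulated counts.

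Alternatives were DESeq2 1.42.0, limma 3.58.1 on the quantile values (pseudocount 1), relative log expression factors, 2 other filters on low counts, the 12 libraries compared, the letter as replicate block and each library left out. Chosen after seeing the data were the 4 libraries left out, a term for the column block and library totals without TMM. Only for 25.1 µM against DMSO at 4 dpf did all 4 shared letters deviate together at an r over 0.1 (0.119 to 0.253). Against DMSO at 4 dpf, 4 of 5 shared letters at 7.87 µM had an r over 0.1 (-0.087 to 0.330). At 14 µM and 4 dpf 2 of 3 did (0.027 to 0.360), so pairing there is possible too. The column block is the order of the table: the last 16 columns carry 16 index numbers once each and the first 32 carry each on 2 libraries; it is not named in the labels. No pair of libraries within a group agreed within counting noise.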

Additional observations from a re-analysis of the deposited data

Results flagged for a closer look

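For each member in each group of 6 libraries, 80 groups in all, the gap between the most extreme library and its nearest neighbour was divided by the range of the group, both in log2 CPM with a prior count of 2. Chance alone flags about 1 in 20 groups; 4 of the 80 were flagged. At 5 dpf and 25.1 µM the level of vil1 in library C (46.5 CPM) lay below the next library (108 CPM) by a share of 0.684 of the range, and c6ast4 in library D (0.611 CPM) lay below the next (7.27 CPM) by a share of 0.728. At 4 dpf slc28a1 in library B at 7.87 µM (1.03 CPM) stood above the next (0.135 CPM) by a share of 0.630, and alpi.2 in library I at 14 µM, with 0.171 CPM, was the single library with a count, a share of 1. Libraries C and D at 25.1 µM had 10 and 8 members below all controls, where 19.6% and 15.4% of all genes were. High levels in those controls may have chosen the members. In CPM without the log the 4 shares, in the order given, were 0.545, 0.39, 0.869 and 1.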

How the results depend on the processing

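At 4 dpf DESeq2 called 10 genes at 7.87 µM and 1 at 14 µM, limma on the quantile values 1 at 14 µM, and the fit on the 12 libraries compared 1 at 25.1 µM; at 5 dpf and 25.1 µM that fit called 2 and DESeq2 1. None was a member. Leaving out 1 library gave 0 to 128 genes called at 7.87 µM and 4 dpf (128 without DMSO library F) and 0 to 1 at 14 µM. Between ages at 14 µM, library totals without TMM called 13869 genes in place of 8486. The fit on 12 libraries called 5 members, all it tested, and nothing is read from that count because rises with age chose the members. With library totals the median of all genes shifted by 0.68 to 0.85 between ages and most calls were higher, 12671 of 13869 at 14 µM against 4557 of 8486; the members stayed higher, 10 of 10 at each concentration. With limma the members' median was -1.61 at 7.87 µM and -1.52 at 14 µM against DMSO at 5 dpf, and 4.35 between ages at 14 µM. The members' median changed sign against DMSO at 4 dpf and 7.87 µM (0.22) with the fit on 12 libraries (-0.27), limma (-0.25) and 3 left-out libraries (down to -0.44), at 14 µM and 4 dpf (-0.38) with the block (0.51) and without DMSO library E (0.15), and at 14 µM and 5 dpf (-0.20) without the 4 libraries (0.37) or without A or D (0.050 and 0.057). Single values that changed sign were slc28a1 at 7.87 µM and 4 dpf without library B (-1.04, up to 2.29 without others), vil1 at 25.1 µM and 4 dpf without library E (-0.059, up to 0.35), tmprss15 at 14 µM and 5 dpf without the 4 libraries low in pancreas genes (0.10), anpepb at 14 µM and 5 dpf with the replicate block (-0.013), with limma (-0.15) and without library H (-0.16, up to 0.58), and prdm1a with library totals (0.023). With the letter as replicate block 8 of 10 members were past the threshold between ages at 14 µM (vil1 at 0.72 and cdx1b at 1.83 were not). In that setting 9720 of 20723 genes were called, and nothing is read from the members' count. For 25.1 µM against DMSO at 4 dpf, where all shared letters deviated together, the members' median with the block was 1.30 and 0 were called. Between ages limma gave c6ast4 at 7.87 µM a log2 fold change of 2.45, against 3.84 with edgeR. At 14 µM it gave tmprss15 2.92 against 4.76 and slc28a1 3.90 against 6.08. These log2 values, not the folds themselves, differed by a ratio over 1.5. Limma did not call c6ast4 at 7.87 µM, vil1 and cdx1b at 14 µM or cdx1b at 25.1 µM between ages. Their limma adjusted p was 0.188, 0.0691, 0.0813 and 0.0581 in that order. The cause of these changes was not tested. The 4 libraries were set aside for low levels of genes that moved with the members, so the values without them are a description. Depth limits the 4 dpf values: of the 24 libraries, alpi.2 had under 3 counts in 20, slc28a1 in 18 and slc15a1a in 12.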
